A study of Arabidopsis thaliana with 6 samples.

Results

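UGT genes encode UDP-dependent glycosyltransferases, the enzymes that join a sugar to small molecules of the plant. They were taken here as every probe set named with 1 gene whose symbol begins with UGT and a digit. That gave 47 genes with 1 probe set each, of 13356 genes named by such probe sets and 22746 non-control probe sets in all. They belong to 11 subfamilies, numbered UGT71 to UGT88. The gene table lists 58 UGT symbols. Of the other 11 genes, 4 share a probe set with another gene and were set aside, and the rest were not analysed here.

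Glycosyltransferases of this family move glucose, or another sugar, from a UDP-sugar onto phenylpropanoids, flavonoids, sterols, foreign compounds and hormones such as salicylic acid, auxin, cytokinin and abscisic acid. The sugar usually makes the acceptor more soluble and less reactive and allows its storage in the vacuole, and a glucosylated hormone is usually inactive. The number in a UGT name marks a group of related sequence, called a subfamily in this text. Members of such a group often, though not always, share a kind of acceptor.

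RNA came from Arabidopsis thaliana seedlings 10 days after germination, of the pvip1 pvip2 double mutant (3 arrays) and of the wild type Col-0 (3 arrays), on Affymetrix ATH1 arrays. Both genotypes were grown on MS agar. Roots were taken off the Col-0 seedlings, while the mutants, whose hypocotyl is vestigial, were cut there so that both were wounded. The alleles, and whether seedlings were pooled, are not given in the sources used here. PVIP proteins carry a PHD finger, are also called OBERON, and act in meristem formation.

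Each value below is the authors' log2 signal, and a change is the mean of pvip1 pvip2 minus the mean of Col-0 on that scale. A gene was tested if its mean over the 6 arrays passed the 40th percentile of all probe sets, a log2 signal of 3.81, and was called at an adjusted p under 0.05 (limma, two-sided, Benjamini-Hochberg over all 13648 tested probe sets). OBE1 (AT3G07780), a PVIP gene, read 2.54, 2.61 and 2.53 in pvip1 pvip2. It read 2.42 in the library labelled Col-0 replicate 1, against 5.085 and 5.17 in Col-0 replicates 2 and 3. At this gene that library goes against its label, and results are also given without it. OBE1 itself lay below the level filter. Over all non-control probe sets, arrays under 1 genotype label correlated at r = 0.976 to 0.988, and arrays of different labels at 0.932 to 0.962. Why OBE1 read low in that library was not tested. Col-0 replicate 3 stood apart in RNA quality: its GAPDH 3' end exceeded the 5' end by 2.31, against 0.55 to 1.08 on the other arrays, and its 25S ribosomal RNA control read 10.15, against 5.96 to 7.67.

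The harvested tissue was checked against markers. Here and in the lists below, a gene counted as measured only if a probe set was named with that gene alone. The others may still be on the array, since 8730 probe sets have no gene name here. All 9 measured markers of green tissue were above the level filter, with a summed linear signal of 23923 to 30904 in pvip1 pvip2 and 35757 to 39220 in Col-0. Of the 9, 4 were called lower, against 10.2% of all tested probe sets. PORB alone kept its call without the library labelled Col-0 replicate 1, where the background was 9.07%. In a limma fit blocked by replicate number, PRK and SBPASE were also called lower (adjusted p = 0.0115 and 0.0409), with a background of 15.8%. Of 15 root markers 3 were measured. PYK10, a root-abundant beta-glucosidase, read 11.76 to 11.80 in pvip1 pvip2 and 9.98 to 10.06 in Col-0, while EXPA7 and EXPA18, expansins of root hairs, did not pass the filter. These 2 read 4.29 and 4.23 in pvip1 pvip2 replicate 2, above every other array (3.21 to 3.355 for EXPA7 and 3.102 to 3.63 for EXPA18). The summed linear signal of the 3, nearly all of it from PYK10, ran from 3505 to 3581 in pvip1 pvip2 and from 1028 to 1092 in Col-0. The part of tissue make-up in the UGT changes was not tested, and in RNA of whole samples fewer cells of a type and less RNA per cell cannot be told apart.

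Most UGT genes that changed were higher in the mutant, and every called change beyond 1 log2 unit was a rise. Of 47 genes 28 were tested, and 8 of these were called, against 20.5% of all tested probe sets. The 8 were 28.6% of the 28. In detail 7 rose, 25% of those tested against a background of 10.4%, and 1 fell, 3.57% against 10.2%. Of the 7, UGT71C2 and UGT76B1 had Col-0 means under the filter level (3.41 and 3.33) and passed it through the mutant arrays. Over the 25 tested UGT genes with both genotype means above that level, 5 were called higher, against a background of 8.97%. The median change was 0.25 over the 28 tested genes and 0.11 over all 47, beside -0.05 over all tested probe sets. Without the library labelled Col-0 replicate 1, 7 were called higher and 1 lower (background 8.90% and 9.07%), and 7 of the 8 were among them. A fit blocked by replicate number gave 9 rises and 3 falls (background 14.5% and 15.8%), including all 8. Arrays of the genotypes did not overlap for 10 of the 28, or 35.7%, a share below the 39.2% of all tested probe sets.

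**Figure D1:**
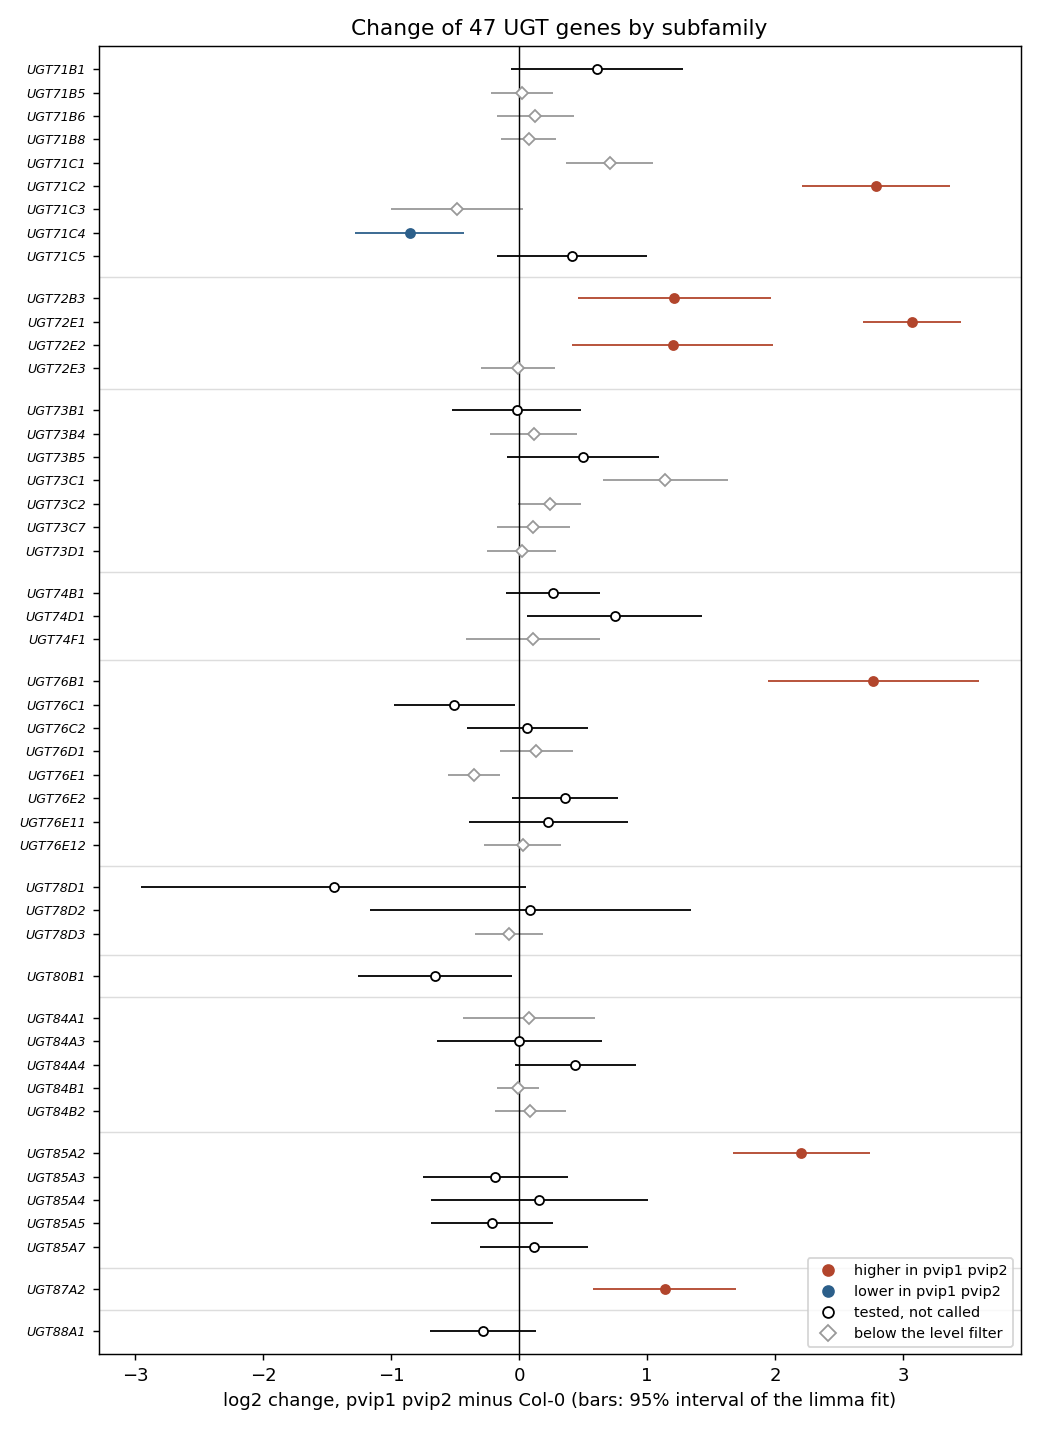
Log2 change (pvip1 pvip2 minus Col-0, horizontal axis) of each of the 47 UGT genes, grouped by subfamily, with the 95% interval of the limma fit. Filled points are the 7 genes called higher and the 1 called lower, open circles were tested and not called, and grey diamonds lay below the level filter.

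In the UGT72 subfamily 3 of 4 members were tested, and all 3 were called higher over all arrays, against 10.4% of all tested probe sets. Only the UGT72E1 call held with each array left out in turn. The E branch of the subfamily attaches glucose to monolignols, the building blocks of lignin, and to the related aldehydes. UGT72E1 (AT3G50740), which acts on coniferaldehyde and sinapaldehyde, read 10.73, 11.04 and 11.14 in pvip1 pvip2, against 7.84, 8.12 and 7.75 in Col-0. All mutant arrays lay far above all Col-0 arrays. The change was 3.07 (SE 0.17, adjusted p = 7.88e-05), an 8.39-fold rise that was larger in size than the changes of 98.9% of tested probe sets. Without the library labelled Col-0 replicate 1 it was 3.04 (adjusted p = 0.000309).

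UGT72E2 (AT5G66690), which glucosylates coniferyl and sinapyl alcohol, read 5.61, 6.75 and 5.395 in pvip1 pvip2, against 4.56, 4.80 and 4.79 in Col-0. The genotypes did not overlap, but mutant replicate 2, the array on which EXPA7 and EXPA18 were highest, stood more than 1 log2 unit above the other mutant arrays. The UGT72E2 change was 1.199 (SE 0.34, adjusted p = 0.0416). It was not called without the library labelled Col-0 replicate 1 (1.12, adjusted p = 0.0902), without Col-0 replicate 2 (1.24, 0.0999) or without Col-0 replicate 3 (1.24, 0.0942). Without pvip1 pvip2 replicate 2 the change was 0.78 and the call was kept (adjusted p = 0.049). UGT72B3 (AT1G01420) read 6.19, 4.93 and 5.88 in pvip1 pvip2, against 4.69, 4.19 and 4.49 in Col-0. Here mutant replicate 2 was the lowest of the mutant arrays, still above every Col-0 array. The change of 1.21 (SE 0.33, adjusted p = 0.035) was lost without Col-0 replicate 2 or 3 (adjusted p = 0.116 and 0.0872) and without pvip1 pvip2 replicate 1 or 3 (0.081 and 0.11), and was 1.33 (adjusted p = 0.0453) without the library labelled Col-0 replicate 1. UGT72E3, whose enzyme acts on sinapyl alcohol, lay below the filter at 3.05 to 3.33 in pvip1 pvip2 and 3.12 to 3.28 in Col-0.

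**Figure D2:**
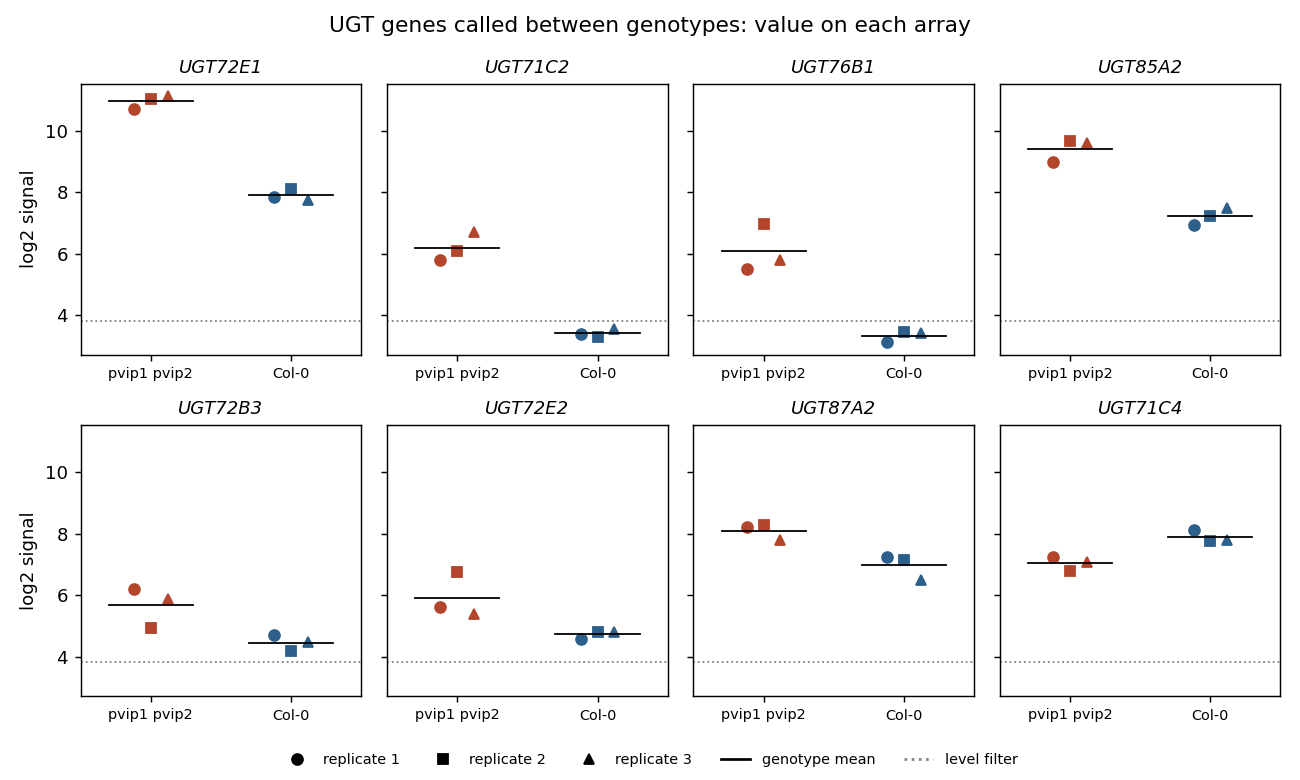
Log2 signal on each array for the 8 called UGT genes, pvip1 pvip2 left of Col-0. Symbols give the replicate number, black bars the genotype means and the dotted line the level filter at 3.81. UGT71C2 and UGT76B1 lie below that line on every Col-0 array and above it on every pvip1 pvip2 array.

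Among genes of the phenylpropanoid and monolignol pathway that the lists held, only 3 of 18 loci were measured and tested. Of these 2 were called higher, against 10.4% of all tested probe sets. CCR2, a cinnamoyl-CoA reductase, read 5.15, 5.11 and 4.66 in pvip1 pvip2, against 3.62, 3.003 and 3.05 in Col-0, a change of 1.75 (SE 0.23, adjusted p = 0.00204). ALDH2C4, the enzyme also known as REF1 that oxidises coniferaldehyde and sinapaldehyde to the acids, changed by 1.73 (SE 0.20, adjusted p = 0.000953). Its values were 9.43, 9.17 and 9.85 in pvip1 pvip2 and 7.64, 7.71 and 7.91 in Col-0. HCT, an acyltransferase of the same route, had a change of 0.49 (adjusted p = 0.254, and 0.03 in the blocked fit). CCR2 and ALDH2C4 stayed called without any single array, with adjusted p up to 0.0121 and 0.00692.

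UGT76B1 (AT3G11340) glucosylates salicylic acid, isoleucic acid and N-hydroxypipecolic acid, signals of plant defence. It read 5.52, 6.97 and 5.815 in pvip1 pvip2, against 3.12, 3.45 and 3.43 in Col-0. The genotypes were well apart, and mutant replicate 2 was again the highest array. The change was 2.77 (SE 0.36, adjusted p = 0.00171), or 2.66 (adjusted p = 0.00533) without the library labelled Col-0 replicate 1. Its Col-0 values lay under the filter level, and with 64 added to the linear signals the change was 0.87 (adjusted p = 0.0143).

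Of other genes for glucosylation of salicylic acid and its relatives, UGT74F1 and UGT76D1 lay below the filter and so could not be called in the main fit. In the limma fit without the filter neither was called (adjusted p = 0.819 and 0.556). UGT74F1, a salicylic acid glucosyltransferase, lay below the filter at 3.41 to 4.13 in pvip1 pvip2 and 3.398 to 3.96 in Col-0. UGT76D1, which glucosylates dihydroxybenzoic acids formed from salicylic acid, lay below it too, with a change of 0.13 (SE 0.12). Of 22 loci of the salicylic and pipecolic acid list 3 were measured and 2 tested. SARD4 (AT5G52810), a reductase of pipecolic acid synthesis, rose by 1.97 (SE 0.27, adjusted p = 0.00207), with 6.99, 7.67 and 6.80 in pvip1 pvip2 against 5.51, 4.94 and 5.097 in Col-0. SAG101, a partner of the defence regulator EDS1, read 3.96, 4.76 and 4.33 in pvip1 pvip2, and 2.27 in the library labelled Col-0 replicate 1 against 3.76 and 3.775 in the other Col-0 arrays (change 1.09, adjusted p = 0.109, and 0.0163 in the blocked fit). Leaving out that library gave 0.59 (adjusted p = 0.161). Every Col-0 value of SAG101 lay under the filter level, so SAG101 passed the filter through the mutant arrays.

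UGT71 was the subfamily with called genes in both directions. UGT71C2 (AT2G29740) read 5.81, 6.08 and 6.72 in pvip1 pvip2, against 3.403, 3.296 and 3.54 in Col-0. The change of 2.79 (SE 0.25, adjusted p = 0.00038) was 2.78 (adjusted p = 0.00131) without the library labelled Col-0 replicate 1, and 0.89 (adjusted p = 0.00239) with 64 added to the linear signals. UGT71C2, UGT76B1 and UGT73B5 were the 3 tested UGT genes whose Col-0 mean lay under the filter level, so they passed it through the mutant arrays. Over the 25 with both genotype means above it, 5 were called higher, against a background of 8.97% of the tested probe sets chosen in the same way.

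UGT71C4 (AT1G07250) was the called gene that fell. It read 7.245, 6.78 and 7.08 in pvip1 pvip2, against 8.115, 7.76 and 7.80 in Col-0, with no overlap. The change of -0.86 (SE 0.19, adjusted p = 0.0155) was -0.75 (adjusted p = 0.0408) without the library labelled Col-0 replicate 1 and -0.73 (adjusted p = 0.053) without pvip1 pvip2 replicate 2, where the call was lost. UGT71C5, whose enzyme makes the glucose ester of abscisic acid, stood at 0.41 (95% interval -0.17 to 0.999), or 0.22 when the library labelled Col-0 replicate 1 was left out, and UGT71B6, with the same acceptor, lay below the filter at 0.13 (SE 0.13). UGT71B1 stood at 0.61 (SE 0.29, adjusted p = 0.184), but was called in the blocked fit (0.0349), in the fit with array weights (0.0489) and without the library labelled Col-0 replicate 1 (0.89, adjusted p = 0.0486). It was 0.38 (adjusted p = 0.454) when Col-0 replicate 2 was left out.

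UGT85A2 (AT1G22360) and UGT87A2 (AT2G30140) were the remaining rises. UGT85A2 read 8.99, 9.69 and 9.60 in pvip1 pvip2, against 6.95, 7.22 and 7.504 in Col-0, a change of 2.20 (SE 0.23, adjusted p = 0.000702). Without the library labelled Col-0 replicate 1 it was 2.07 (adjusted p = 0.00209). UGT87A2, which acts in the control of flowering time, read 8.23, 8.27 and 7.81 in pvip1 pvip2, against 7.26, 7.15 and 6.49 in Col-0. Its lowest value was in Col-0 replicate 3, the array with the raised 3' to 5' difference. The change was 1.14 (SE 0.24, adjusted p = 0.0146), or 1.28 (adjusted p = 0.0154) without the library labelled Col-0 replicate 1. It stayed called without Col-0 replicate 3 (0.90, adjusted p = 0.0322) and was not called without pvip1 pvip2 replicate 2 (1.05, adjusted p = 0.0545).

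**Figure D3:**
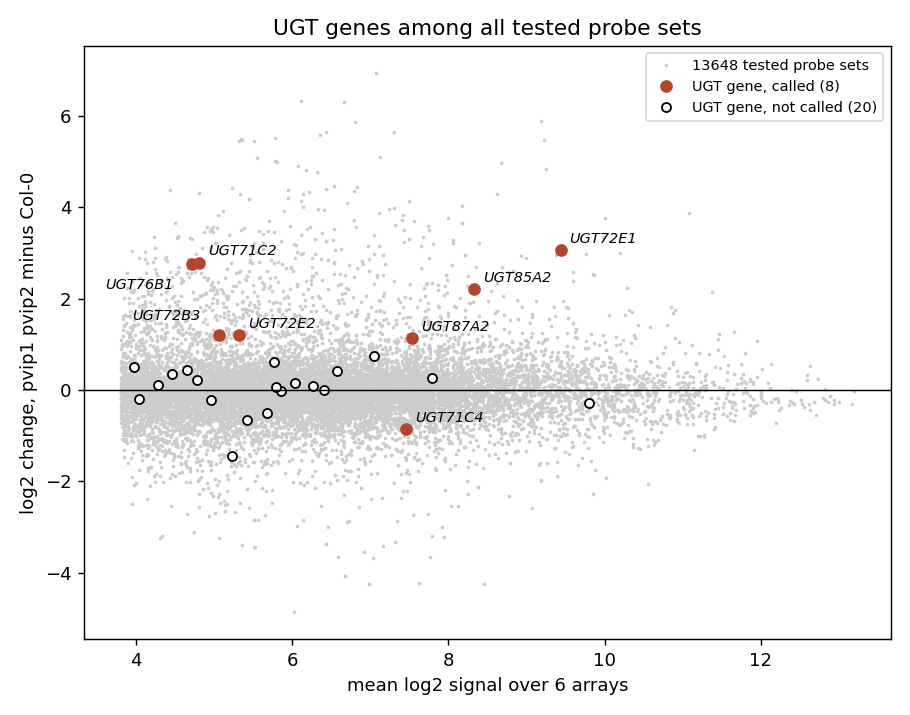
Mean log2 signal over the 6 arrays (horizontal axis) against log2 change (pvip1 pvip2 minus Col-0, vertical axis) for the 13648 tested probe sets in grey, the 8 called UGT genes filled and the 20 uncalled ones open. UGT72E1 and UGT85A2 changed by 3.07 and 2.20 at mean signals of 9.44 and 8.33, while UGT71C2 and UGT76B1 lie close to the left edge at 4.81 and 4.72.

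UGT74D1, which glucosylates auxin and its oxidised form, read 7.70, 7.41 and 7.15 in pvip1 pvip2, against 7.16, 6.82 and 6.05 in Col-0. The ranges overlapped only where mutant replicate 3 (7.153) and the library labelled Col-0 replicate 1 (7.159) read nearly alike, and Col-0 replicate 3 was the lowest. Its change of 0.74 (SE 0.29, adjusted p = 0.116) was called when either the replicate number (0.0167) or the fluidics station (0.0438) was a block. With Col-0 replicate 3 left out it was 0.43 (adjusted p = 0.253). UGT76C1 and UGT76C2 encode cytokinin N-glucosyltransferases. UGT76C1 read 5.54, 5.28 and 5.45 in pvip1 pvip2, against 6.25, 5.64 and 5.90 in Col-0, with no overlap but no call (-0.51, SE 0.20, adjusted p = 0.12), and UGT76C2 stood at 0.06 (95% interval -0.41 to 0.54). UGT84B1, which forms the glucose ester of auxin, lay near the bottom of the scale at 2.475 to 2.55 in pvip1 pvip2 and 2.51 to 2.55 in Col-0.

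Of 19 listed genes that inactivate auxin or cytokinin by other routes, 6 were measured and 4 tested. GH3.17, which joins auxin to glutamate, rose by 1.03 (SE 0.28, adjusted p = 0.0346), and this was lost without Col-0 replicate 2 or 3 (0.114 and 0.103) or without pvip1 pvip2 replicate 1, 2 or 3 (0.0863, 0.0853 and 0.0572). GH3.3, GH3.5 and DAO1 stood at 0.12, -0.89 and 0.41, and GH3.5 was called in the blocked fit (adjusted p = 0.0103).

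The UGT78 subfamily glycosylates flavonoids, and its 2 tested genes varied widely between arrays of one genotype. UGT78D2, the flavonoid 3-O-glucosyltransferase, read 7.40, 5.999 and 5.51 in pvip1 pvip2, against 7.14, 5.89 and 5.63 in Col-0. Both genotypes were high in replicate 1 and low in replicate 3, with SDs of 0.98 and 0.81 (n = 3 each), and the change was 0.09 (95% interval -1.17 to 1.34). UF3GT, an anthocyanin glycosyltransferase gene whose symbol lacks the UGT form, read 5.28, 4.28 and 4.06 in pvip1 pvip2, against 5.25, 4.35 and 4.13 in Col-0. DFR, which makes anthocyanin precursors, read 4.94, 3.76 and 3.02 in pvip1 pvip2, against 4.96, 4.19 and 2.64 in Col-0, so the order of the replicates was shared again.

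UGT78D1, the flavonol 3-O-rhamnosyltransferase, followed that order in the mutant, at 6.10, 4.205 and 3.21, but not in Col-0, at 6.49, 5.58 and 5.80. In each replicate number the mutant was lower, by an amount that was small in replicate 1. The change of -1.45 (SE 0.65, adjusted p = 0.159) was called in the blocked fit (0.0264). It was -2.25 (adjusted p = 0.00887) when pvip1 pvip2 replicate 1 was left out, -0.80 (adjusted p = 0.397) when pvip1 pvip2 replicate 3 was, and -0.88 on the first station alone. UGT78D3, an arabinosyltransferase of flavonols, lay below the filter. UGT80B1, a sterol glucosyltransferase also known as TRANSPARENT TESTA 15, read 4.99, 4.83 and 5.45 in pvip1 pvip2, against 5.38, 5.695 and 6.175 in Col-0. The change of -0.66 (SE 0.26, adjusted p = 0.116) was called when either the replicate number (0.0272) or the station (0.0481) was a block.

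**Figure D4:**
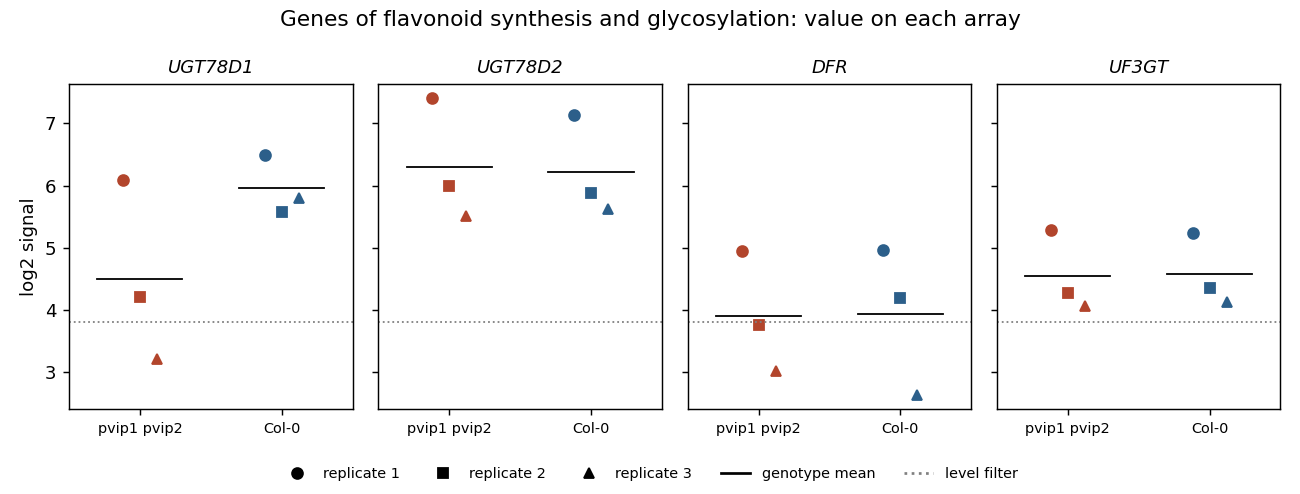
Log2 signal on each array for UGT78D1, UGT78D2, DFR and UF3GT, pvip1 pvip2 left of Col-0. Symbols give the replicate number, black bars the genotype means and the dotted line the level filter. Replicate 1 is the highest array of both genotypes in all 4 panels.

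UGT74B1, which glucosylates the thiohydroximate intermediate of glucosinolates, read 7.93, 7.77 and 8.07 in pvip1 pvip2, against 7.82, 7.56 and 7.59 in Col-0, and was not called (0.26, SE 0.16, adjusted p = 0.285). Of 23 other listed glucosinolate genes 2 were measured and 1 tested. BCAT4, the aminotransferase at the start of methionine chain elongation, read 6.23, 5.94 and 6.365 in pvip1 pvip2, against 8.82, 8.73 and 9.21 in Col-0. BCAT4 fell, at -2.74 (SE 0.19, adjusted p = 0.000146), while the 95% interval of the UGT74B1 change was -0.10 to 0.63.

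UGT84A1, UGT84A3 and UGT84A4 encode enzymes that form glucose esters of hydroxycinnamic acids, and stood at 0.08, 0.002 and 0.44, the first of them below the filter. UGT84A3 ran from 6.15 to 6.57 in pvip1 pvip2 and from 5.84 to 6.90 in Col-0, with the mutant range inside that of Col-0. UGT73B1 and UGT73B5 stood at -0.02 and 0.50. Of 44 listed detoxification partners 10 were measured and 4 tested, all of them tau-class glutathione transferases. GSTU27 rose by 1.597 (SE 0.20, adjusted p = 0.00152) and GSTU20 fell at -1.28 (SE 0.13, adjusted p = 0.000688). GSTU26 did not pass the filter, at 2.89, 2.97 and 2.89 in pvip1 pvip2 against 3.85, 4.09 and 4.40 in Col-0. In the limma fit without the filter it was called lower (-1.20, SE 0.17, adjusted p = 0.00274). GSTU16 and GSTU18, at -0.60 and -0.77, were called in the blocked fit (0.0338 and 0.0238). Of 25 loci of UDP-sugar supply only USP, a UDP-sugar pyrophosphorylase, had a probe set named with it alone, at -0.10 (adjusted p = 0.683).

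The UGT gene with the highest mean signal over the 6 arrays was not called. UGT88A1 read 9.84, 9.55 and 9.61 in pvip1 pvip2, against 10.29, 9.77 and 9.77 in Col-0, a change of -0.28 (SE 0.18, adjusted p = 0.314), or -0.11 (adjusted p = 0.68) when the library labelled Col-0 replicate 1 was left out. The mutant arrays overlapped with those of Col-0 only through mutant replicate 1. UGT76E2, at 4.42 to 4.85 in pvip1 pvip2 and 4.198 to 4.38 in Col-0, did not overlap between the genotypes but was not called (0.36, adjusted p = 0.203), and UGT76E11 and UGT85A4 stood at 0.23 and 0.16. Leaving out the library labelled Col-0 replicate 1 gave 0.52 for UGT76E11 and -0.22 for UGT85A4, neither called.

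Below the level filter lay 19 UGT genes, with mean signals of 2.25 to 3.76, where a signal cannot be told from background in these files. Their median change was 0.08. When all 22746 probe sets were tested without the filter, 3 of the 19 were called, and 11 of all 47 (23.4%, against a background of 13.4%). UGT73C1, whose enzyme acts on cytokinins and on the explosive TNT in vitro, read 3.98, 3.41 and 4.065 in pvip1 pvip2, against 2.96, 2.365 and 2.695 in Col-0 (change 1.14, SE 0.22, adjusted p = 0.0104, or 0.0111 without the library labelled Col-0 replicate 1). UGT71C1, which acts on phenylpropanoids and flavonoids in vitro, read 3.63, 3.71 and 3.52 in pvip1 pvip2, against 2.94, 3.125 and 2.67 in Col-0. Its change of 0.71 (SE 0.15, adjusted p = 0.0166) was lost without Col-0 replicate 3 (0.0594) or pvip1 pvip2 replicate 2 (0.0556), and was called without the library labelled Col-0 replicate 1 (0.0367). UGT76E1 was lower, at -0.36 (SE 0.09, adjusted p = 0.0327), with no signal above 2.74 on any array, and lost its call without the library labelled Col-0 replicate 1 (0.0689) or 2 (0.0767) and without pvip1 pvip2 replicate 1, 2 or 3 (0.0523, 0.122 and 0.0852). The other 16 had changes from -0.485 to 0.24.

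Many UGT genes lie in tandem. By the order of genes in the TAIR10.1 annotation, 31 of the 47 fell into 13 groups of neighbours with at most 3 protein-coding genes between them. UGT85A2 stands between UGT85A7 and UGT85A5, followed by UGT85A3. Its change of 2.20 stood beside 0.11, -0.21 and -0.19 for UGT85A7, UGT85A5 and UGT85A3. Per array, UGT85A2 minus each of these genes differed between the genotypes by 2.09, 2.42 and 2.39. UGT71C4, at -0.86, lies between UGT71C5 at 0.41 and UGT71C3, and the difference against UGT71C5 was -1.27. UGT71C3 lay below the filter and stood at -0.485 (adjusted p = 0.213 in the test without the filter), and at -0.76 (adjusted p = 0.0169) when pvip1 pvip2 replicate 2 was left out of that test. UGT71C1, the neighbour of UGT71C2, and UGT71C3 lay below the filter, so no difference was taken against them.

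Each of those 4 differences was compared between genotypes by a two-sided exact permutation test over the arrays. In each of the 4 the exact p was 0.1, the smallest that 3 against 3 arrays allow (0.1 after adjustment over the 4), so none could pass the threshold. All 47 probe sets carry the plain suffix that the array maker gives to sets designed for 1 transcript, and how far near-identical neighbours share signal was not tested.

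**Figure D5:**
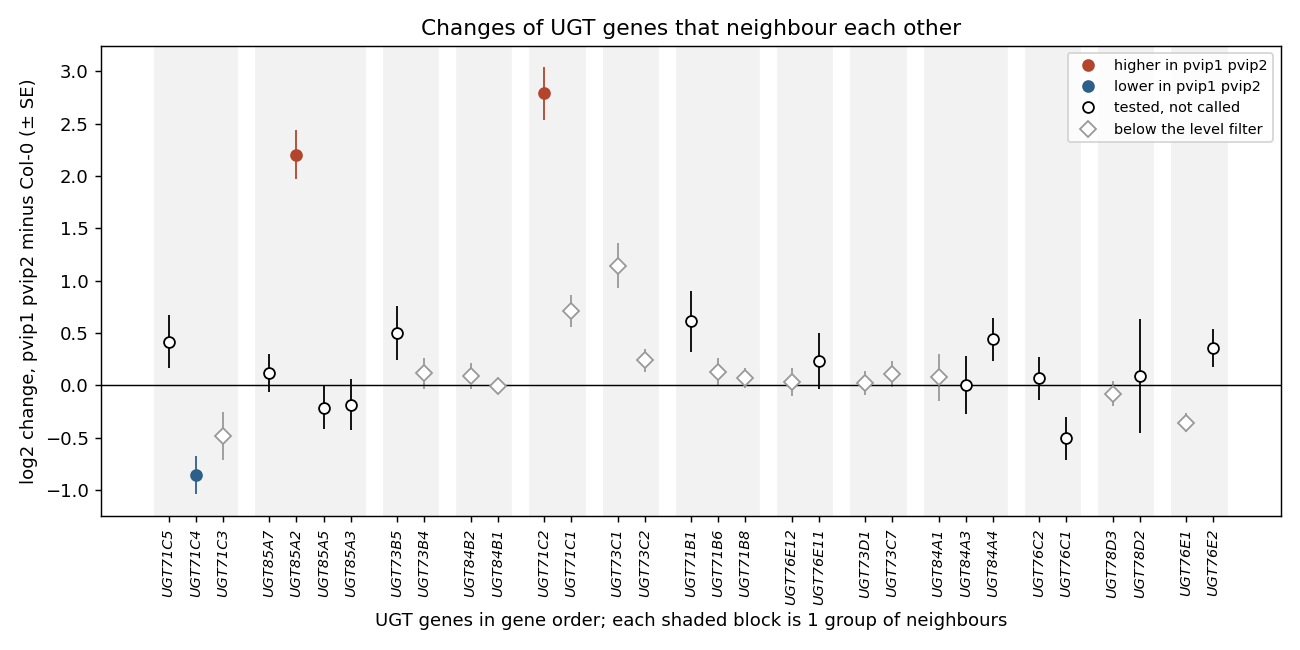
Log2 change (pvip1 pvip2 minus Col-0, ± SE) of the 31 UGT genes that lie in 13 groups of neighbours, each group on 1 shaded block in gene order. UGT85A2 stands 2.09 to 2.42 above its neighbours.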

How the data were processed

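The log2 values were deposited by the authors, 1 column per array. The submitters' processing notes name GCOS, with no version. The sources used here do not state how signals were summarised, background-corrected or normalized. The range of the values gave the base. Array medians ran from 4.54 to 4.67, and the values were used as deposited. The other deposited files hold array settings, read only for the fluidics station.

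Of 22810 probe sets 64 were controls. Of the rest 13513 have 1 gene, 503 several and 8730 none here. The gene table held 13436 of the 13513. It was used for names and neighbours only, since no source used here gives the build of the platform annotation.

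The comparison of genotypes used limma 3.58.1 under R 4.3.3 (eBayes with a trend), tested on simulated data first. The median SE of a change was 0.203, limited by the number of arrays, which the labels call biological replicates. Deviations of same-numbered arrays from their genotype means correlated at r = 0.592, 0.356 and 0.155 across probe sets, each over 0.1, while differently numbered arrays ranged from -0.45 to 0.25. Of the differently numbered arrays, pvip1 pvip2 replicate 2 with Col-0 replicate 3 (0.248) and pvip1 pvip2 replicate 3 with Col-0 replicate 2 (0.114) also passed 0.1. The threshold therefore does not single out the numbers as pairs. The main fit has no block, and blocked values are given where they change a call. Called UGT genes were named in full, then per subfamily the gene with the highest level and those with an unadjusted p under 0.05, and the called genes of each list. The choice of any other named gene was made with its values known. The members and lists were chosen with earlier results of these data known. Alternatives were the block, the filter, the variance trend, a pseudocount of 64, scaling, array weights, the station, and each array left out.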

Additional observations from a re-analysis of the deposited data

How the results depend on the processing

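The rises of UGT72E1, UGT71C2, UGT76B1 and UGT85A2 kept their direction and their call in every alternative in which they were tested. The count of UGT genes called higher was 3 with a filter at the 60th percentile, which leaves fewer genes tested, and ran from 5 to 7 with 1 array left out, against 7. It was 5 on the first station alone and 6 with the pseudocount. With array weights or the station as a block it was 8, and without the filter or with the replicate block 9. The count called lower was 0 on the first station alone (2 lower at an unadjusted p under 0.05 in limma), 2 without the filter, 2 with the station as a block and 3 with the replicate block, and ran from 0 to 2 with 1 array left out, against 1. At 0, without pvip1 pvip2 replicate 2, 1 was lower at an unadjusted p under 0.05. The replicate block ended no call of a named UGT gene. The count over all probe sets was 1826 with the stricter filter and 978 with the first station only, and ran from 1654 to 2741 with 1 array left out, against 2803. It was larger with the replicate block (4129), with array weights (3845) and without the filter (3040). On the first station alone UGT71C4, UGT72B3 and UGT72E2 were not called (adjusted p = 0.0989, 0.213 and 0.0974), nor was UGT72E2 with a pseudocount of 64 (0.49, adjusted p = 0.0766). Without the filter UGT76E1 was also lost with equal medians, no variance trend and the pseudocount (adjusted p = 0.0776, 0.0983 and 0.0532), and UGT71C1, UGT73C1 and UGT76E1 on the first station alone (0.116, 0.113 and 0.107). The cause was not tested. Changes near 0 turned sign without a call. With 1 array left out, UGT73B1 ran from -0.22 to 0.0847, UGT76C2 from -0.0614 to 0.19, UGT78D2 from -0.46 to 0.55, UGT84A3 from -0.28 to 0.25, UGT85A4 from -0.22 to 0.41 and, without the filter, UGT84A1 from -0.0928 to 0.29. UGT84A1 was -0.0112 on the first station alone and -0.0811 without pvip1 pvip2 replicate 1. UGT76C2 was -0.0392 and UGT85A4 -0.0397 with array weights. UGT84A3 was -0.0107 with equal medians, -0.0106 with quantile normalization and -0.0122 with the pseudocount. The choice of probe set changed nothing, since each gene has 1. Fits without the filter for genes below it were added after the data were seen.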
